A study of Rattus norvegicus with 4 samples.

Results

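The islet transcription factors considered here were Pdx1, Mafa, Nkx6-1, Nkx2-2, Neurod1, Isl1, Pax6, Rfx6 and Mnx1, 9 genes that set and keep the identity of the hormone-producing cells of the pancreas. Their RNA was measured in islets isolated from Sprague Dawley rat pups on postnatal day 14, after intrauterine growth restriction (IUGR) or control surgery. IUGR pups came from dams whose uterine arteries were both ligated on embryonic day 18, and control pups from sham-operated dams. No genetic change separated the groups. The labels give 4 biological replicates of either group, and they give neither sex, litter nor the number of pups behind a sample. Each of 4 arrays carried 1 IUGR and 1 control sample in different dyes, with IUGR in Cy5 on arrays 1 and 2 and in Cy3 on arrays 3 and 4.

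Members were found by the gene name that the array design gives each non-control probe. Of the 9 genes, 7 had a probe under their own symbol. A probe named by the older symbol Hlxb9 stood for Mnx1, paired through the synonyms of a RefSeq gene table (assembly GRCr8). Nkx2-2 was not analysed here, since no probe was found under its name. The 8 others each had 1 probe with 1 spot, of 30367 probes in all, and all 8 were among the 19992 genes or unnamed probes tested. Each member signal was well above background in 4 of 4 IUGR and 4 of 4 control channels, and none was saturated. A single spot per gene leaves the error within an array unmeasured.

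As background, these factors form a network in which the proteins bind each other's genes as well as the genes of insulin and of glucose sensing. Pdx1, Mafa and Neurod1 bind the insulin promoter together. Nkx6-1 and Mnx1 hold the beta cell fate against that of other islet cells, while Isl1, Pax6 and Rfx6 act in several endocrine cell types. Mafa in rodents rises after birth as beta cells mature. Pdx1 is the member most studied in growth-restricted rats, where its silencing has been described, beginning with loss of the activator Usf1 from its proximal promoter.

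That promoter is shown because an E-box in it, CACGTG, is the kind of site Usf1 binds. The windows are the 250 bases before the annotated start on RefSeq GRCr8, read 5′ to 3′ on the gene's strand, and capitals mark every E-box (CANNTG, which reads alike on both strands and includes CACGTG) and every homeodomain core TAAT on either strand. Pdx1 lies at chr12:12799157-12799406, minus strand. Mnx1, at chr4:6541395-6541644 on the plus strand, and Neurod1, at chr3:84770455-84770704 on the minus strand, are shown because, with Mafa, their ratios had the smallest p of the set.
Pdx1: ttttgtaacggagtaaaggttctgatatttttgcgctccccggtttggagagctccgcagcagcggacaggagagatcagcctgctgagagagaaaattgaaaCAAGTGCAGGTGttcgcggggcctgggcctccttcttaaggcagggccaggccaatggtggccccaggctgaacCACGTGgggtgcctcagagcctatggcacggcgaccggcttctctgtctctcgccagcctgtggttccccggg
Mnx1: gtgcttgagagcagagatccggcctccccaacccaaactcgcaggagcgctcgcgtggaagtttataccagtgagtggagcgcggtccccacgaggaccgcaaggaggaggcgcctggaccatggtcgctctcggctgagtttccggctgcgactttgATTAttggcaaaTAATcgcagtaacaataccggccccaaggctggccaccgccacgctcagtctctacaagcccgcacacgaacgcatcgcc
Neurod1: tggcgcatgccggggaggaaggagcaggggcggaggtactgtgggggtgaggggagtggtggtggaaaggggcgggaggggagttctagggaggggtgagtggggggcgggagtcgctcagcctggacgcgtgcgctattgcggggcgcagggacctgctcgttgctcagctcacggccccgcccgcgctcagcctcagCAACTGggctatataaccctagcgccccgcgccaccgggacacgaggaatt
The Pdx1 window held 3 E-boxes, among them 1 CACGTG at positions -73 to -68 from the start, and no TAAT. Neurod1 held 1 E-box and no TAAT, and Mnx1 held 2 TAAT cores and no E-box. Of 33469 rat promoter windows of this length, 65.5% held an E-box, 5.59% held CACGTG and 57.0% held TAAT. These matches describe the letters and say nothing of binding in these islets.

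Mafa showed the highest IUGR over control ratio of the set, though no islet transcription factor passed the test. The limma test with Benjamini-Hochberg adjustment called 0 of 8 members, where the background over all genes tested was 0% and the smallest adjusted p of any gene was 0.339. At an unadjusted p under 0.05, Mafa and Mnx1 were higher and Neurod1 was lower in IUGR, 2 and 1 of 8 members. Over all genes tested, 7.12% were higher and 6.55% were lower at that level, 2733 genes in all. Of the 8 members, 5 had a mean log2 ratio above 0, against 52.9% of all genes tested. The median log2 ratio of the members was 0.29, and that of all genes tested was 0.01. The members' median was 0.10 without array 2 and -0.04 with each array centred on its median in place of loess. Fits without an array keep a term for dye, so their estimates are not plain means of the arrays left. In them, the array left alone in its dye orientation weighs as much as the other arrays together.

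Mafa encodes a basic leucine zipper activator of the insulin gene and a mark of mature beta cells. Its normalised log2 levels were 8.92, 8.78, 8.58 and 8.76 in IUGR replicates 1 to 4 and 9.02, 7.40, 6.92 and 7.95 in control replicates 1 to 4. The 4 IUGR samples lay close together, while control replicate 1 stood above all of them and the other controls lay below. The SD was 0.14 among IUGR and 0.90 among control levels (n = 4 each), a difference in spread that was not tested. Its log2 IUGR over control ratios on arrays 1 to 4 were -0.24, 1.53, 1.84 and 0.63. The mean was 0.94 ± 0.36 (SE from the limma model, which removes the dye effect, n = 4 arrays), a 1.92-fold ratio with a 95% interval of 0.01 to 1.87 on the log2 scale and an adjusted p of 0.339. Of all genes tested, 0.47% had a larger mean ratio. The ratio rests on 1 probe. Before normalisation, the Mafa signals on arrays 1 to 4 were 562, 193, 258 and 273 intensity units in the IUGR channels. In the control channels they were 199, 159, 288 and 484. On arrays 2 to 4 the control signals were below the channel medians of 314, 823 and 586, while the other Mafa signals were above theirs. Without array 1 the model estimate was 1.38 (adjusted p = 0.0713), and without array 2 it was 0.50 (adjusted p = 0.881). Keeping outlying local backgrounds as measured, or leaving those spots out, gave 0.54 (adjusted p = 0.545 for both), though no Mafa spot was among them. The authors' deposited table gave -0.28, 1.84, 2.15 and 0.71 for the 4 arrays, turned to IUGR over control.

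Pdx1, the homeodomain factor needed to form the pancreas and to keep beta cells working, had the same order of signs. Its log2 levels were 13.40, 12.60, 12.69 and 12.66 in IUGR replicates 1 to 4 and 12.86, 12.34, 12.08 and 12.20 in the controls. All IUGR samples lay above 3 of the controls, and control replicate 1 reached into the IUGR range. The log2 ratios on arrays 1 to 4 were -0.26, 1.06, 0.57 and 0.49. Their mean was 0.47 ± 0.23, a 1.38-fold ratio (interval -0.13 to 1.06, adjusted p = 0.343). Array 2 carried the largest value. Without it the model estimate was 0.14, in which array 1 weighs as much as arrays 3 and 4 together. The estimate was 0.80 without array 1 and 0.13 under median centring. The upstream factor Usf1, named here for the E-box above and not by the rule for named genes, had a mean log2 ratio of 0.03 ± 0.10 (adjusted p = 0.895).

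Neurod1, the basic helix-loop-helix partner that binds E-boxes of the insulin promoter, had a mean ratio below 0. Its log2 levels were 12.84, 12.53, 12.87 and 12.77 in IUGR replicates 1 to 4 and 12.97, 13.27, 12.89 and 12.77 in the controls. Control replicates 1, 2 and 3 lay above every IUGR sample, replicate 3 only narrowly (12.89 against 12.87). Control replicate 4 lay within the IUGR range. Ratios on arrays 1 to 4 were -0.44, -0.43, -0.13 and 0.10 on the log2 scale. They split by dye, with a mean of -0.43 where IUGR was in Cy5 and -0.01 where it was in Cy3. The model, which takes that difference out, gave -0.22 ± 0.08 (interval -0.44 to -0.01, adjusted p = 0.339). Under median centring the mean was -0.58. The probe lies at chr3:62225107-62225166, minus strand, on rn4, the assembly of the array design.

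**Figure D1:**
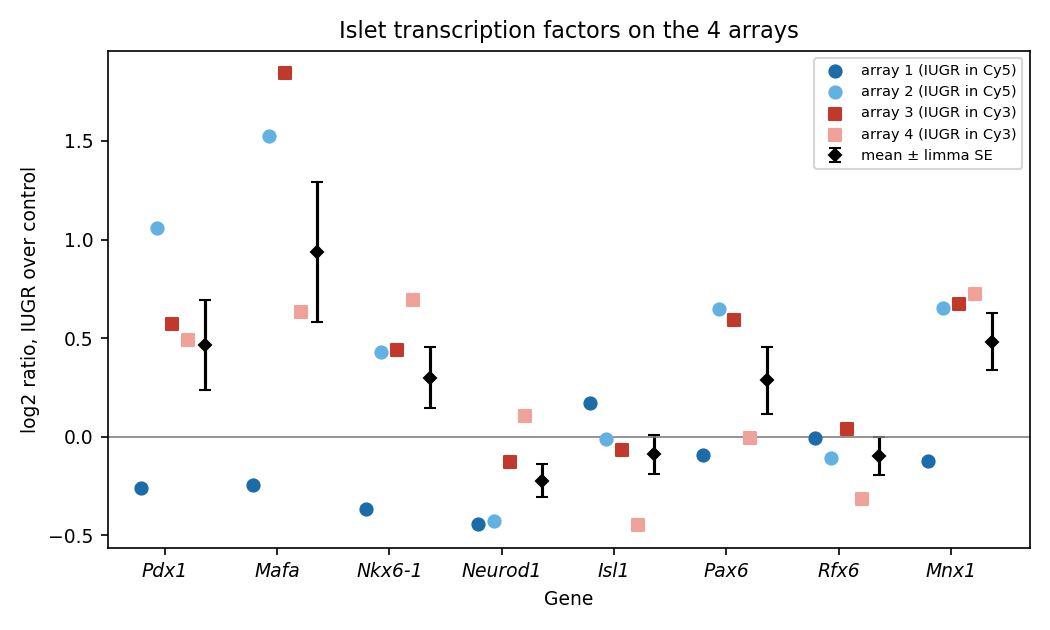
Log2 IUGR over control ratio (vertical axis) of each tested islet transcription factor (horizontal axis), 1 coloured point per array (circles with IUGR in Cy5, squares with IUGR in Cy3), and the mean with its limma SE as a black diamond and bar. Pdx1, Mafa, Nkx6-1 and Mnx1 lie below 0 on array 1 and above 0 on the other 3 arrays, and Mafa spans the widest range, from -0.24 to 1.84.

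Mnx1, a homeodomain factor that represses genes of other endocrine fates in beta cells, had the smallest p of the set. Log2 levels were 7.45, 7.07, 7.50 and 7.25 in IUGR replicates 1 to 4 and 7.20, 6.80, 6.57 and 6.78 in the controls. Control replicate 1 again lay within the IUGR range, and the other controls lay below every IUGR sample. Array ratios were -0.12, 0.65, 0.67 and 0.72 on the log2 scale, so that arrays 2, 3 and 4 nearly coincided. Their mean was 0.48 ± 0.15, a 1.40-fold ratio (interval 0.10 to 0.86, adjusted p = 0.339). The signals were dim, from 53.3 to 163 intensity units over local backgrounds of 18 to 45. Over the alternatives run, the model estimate was lowest at 0.27 when the brightness difference between channels entered the model. It was highest at 0.97 from Agilent's processed signals. The file maps this probe to no place on rn4, so its letters are given.
Mnx1 probe: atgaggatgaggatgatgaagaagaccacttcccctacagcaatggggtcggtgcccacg

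Nkx6-1, the homeodomain repressor that keeps beta cells from an alpha cell programme, had log2 levels of 12.54, 11.95, 12.22 and 12.13 in IUGR replicates 1 to 4. The control levels were 12.31, 12.11, 11.69 and 11.53. The groups overlapped in the upper controls, replicates 1 and 2. Ratios on arrays 1 to 4 were -0.36, 0.43, 0.44 and 0.69, with a mean of 0.30 ± 0.15 (adjusted p = 0.353). The mean was 0.03 where IUGR was in Cy5 and 0.57 where it was in Cy3. This dye difference was at least as large as that of Neurod1, as were those of Mafa (0.64 and 1.24) and Mnx1 (0.27 and 0.70). Under median centring the mean was -0.04. Its probe lies at chr14:9221609-9221668, plus strand, on rn4.

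**Figure D2:**
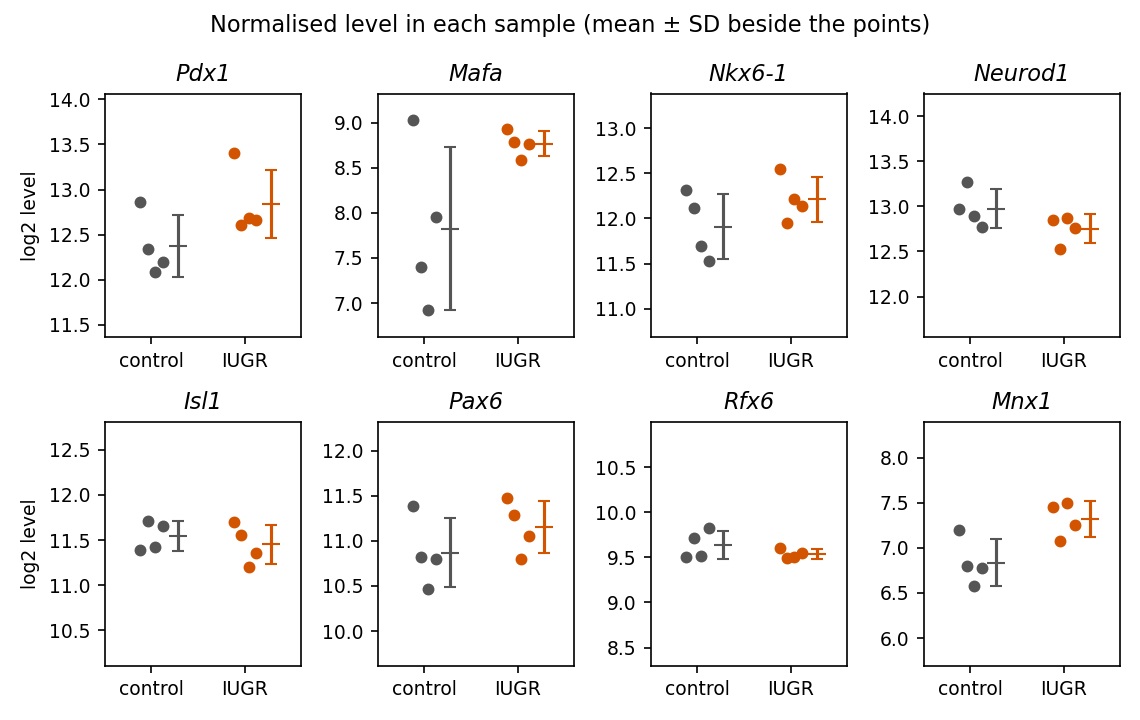
Normalised log2 level (vertical axis, the same span in each panel) of each gene in the 4 control (grey) and 4 IUGR (orange) samples, replicates 1 to 4 from left to right, with mean ± SD beside the points. In Mafa the control points run from 6.92 to 9.02 while the IUGR points stay between 8.58 and 8.92.

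Pax6, a paired-domain factor of all islet endocrine cells, had log2 levels of 11.47, 11.29, 10.80 and 11.06 in IUGR and 11.38, 10.82, 10.46 and 10.80 in control replicates 1 to 4. The ranges of the groups overlapped, with control replicate 1 near the top. Ratios were -0.09, 0.65, 0.59 and -0.00 on arrays 1 to 4, so that arrays 2 and 3 carried the mean of 0.29 ± 0.17 (adjusted p = 0.391). Under median centring that mean was -0.05. The probe lies at chr3:91148400-91148459, plus strand, on rn4.

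Isl1 and Rfx6 had small mean ratios below 0, which under median centring were -0.44 and -0.40. Isl1, a LIM homeodomain factor of all islet hormone cells, had log2 levels from 11.21 to 11.70 in IUGR and from 11.39 to 11.71 in control samples. Its array ratios were 0.17, -0.01, -0.07 and -0.45, and their mean was -0.09 ± 0.10 (interval -0.35 to 0.17, adjusted p = 0.621). Without array 4 the Isl1 estimate was 0.01. Rfx6, a winged-helix factor needed to form islet cells other than those making pancreatic polypeptide, had levels from 9.49 to 9.61 in IUGR and from 9.50 to 9.82 in control samples. Rfx6 ratios were -0.01, -0.11, 0.04 and -0.32, with a mean of -0.10 ± 0.09 (interval -0.35 to 0.15, adjusted p = 0.565). These intervals leave room for shifts of either sign. The probes lie at chr2:48052237-48052296 (Isl1, minus strand) and chr20:30390453-30390512 (Rfx6, plus strand) on rn4.

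In every member tested but Mnx1, the SD of the ratio over the 4 arrays exceeded the size of its mean. None of the 8 had the same sign on all 4 arrays, which 11% of all genes tested had above 0 and 9.69% below 0. None had levels that separated the groups, against 1.42% of all genes with every IUGR level above every control level and 1.59% with every one below. Pdx1, Mafa, Nkx6-1 and Mnx1, 4 of 8 members, were below 0 on array 1 and above 0 on the other 3 arrays. That pattern was chosen after the values were seen, and 16.4% of all genes tested had it. The members' median ratio was -0.18 on array 1, 0.54 on array 2, 0.51 on array 3 and 0.30 on array 4. Channel brightness moved with this pattern. Before normalisation, the median IUGR signal over the median control signal was 1.68 on the log2 scale for array 1, against -1.58, -2.42 and -1.55 for the others. With that difference as a covariate in place of the dye term, the estimate is the fitted ratio at equal channel brightness. That point lies between array 1 and the other arrays. The members' median was then 0.11, and the estimates were 0.49 for Mafa, 0.22 for Pdx1 and 0.27 for Mnx1. Array 1 held IUGR replicate 2 and control replicate 1, and its control channel, with a median of 107 intensity units, was the dimmest of the 4 control channels. In Pdx1, Mafa and Mnx1, control replicate 1 was the 1 sample that kept the groups from separating. In Neurod1, that sample was control replicate 4. Across all genes, which are not independent, r between the array 1 ratios and those of the other arrays was 0.13, -0.23 and -0.30.

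**Figure D3:**
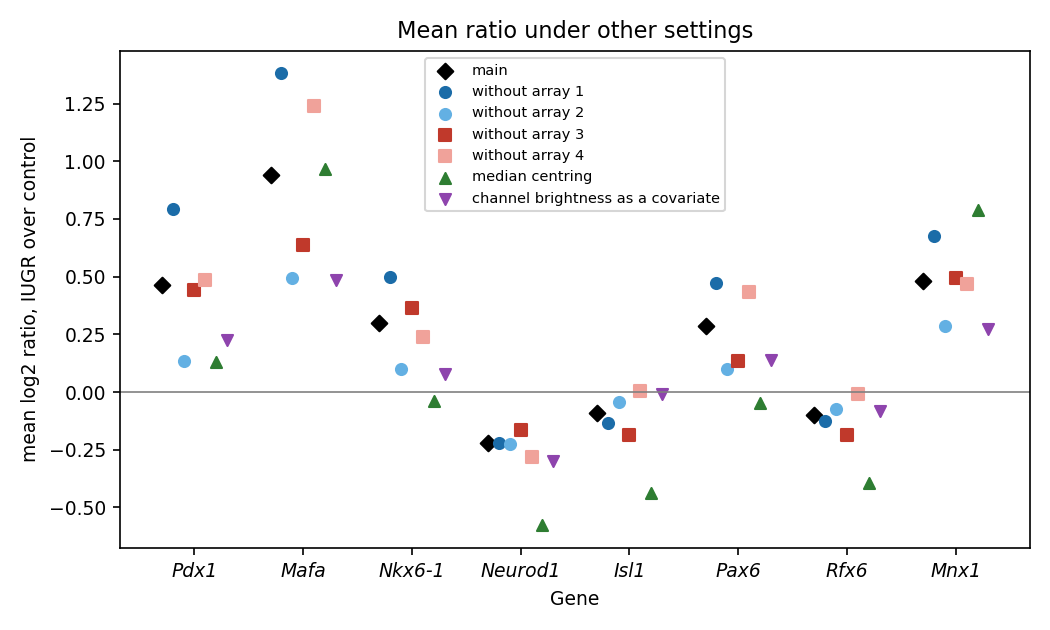
Model estimate of the log2 IUGR over control ratio (vertical axis) of each member (horizontal axis). It is shown for the main fit, without each array in turn, with median centring and with channel brightness as a covariate. With that covariate, the estimate is the value at equal channel brightness, not a mean. Mafa ranges from 0.49 to 1.38 and stays above 0, Nkx6-1 and Pax6 fall to -0.04 and -0.05 under median centring, and Isl1 reaches 0.01 without array 4.

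Cell content could also differ between these bulk samples, in which fewer cells of a type and less RNA per cell cannot be told apart. All 5 tested beta cell markers of 6 listed had a mean ratio above 0, with a median of 0.22, but their array medians of 0.62, 0.82, -0.52 and -0.38 turned with the dye. Their summed level ranged from 315000 to 1020000 intensity units in IUGR and from 366000 to 688000 in control samples. Ins1, with array ratios of 1.06, 1.70, -0.98 and -0.89, and Ins2, with 1.26, 1.72, -1.03 and -0.79, showed this turn. So did Iapp, whose ratios were the array medians. Slc2a2, with 0.20, 0.45, 0.39 and 0.23, and Slc30a8, with 0.21, 0.13, 0.46 and -0.35, did not change sign with the dye. No beta cell defining marker was at 0. Markers of delta, PP and epsilon cells, 4 of 4 tested, had a median of -0.51, and their summed levels overlapped at 124000 to 206000 in IUGR and 128000 to 210000 in control samples. Alpha cell markers, 6 of 6 tested, had a median of -0.01. Acinar genes, which belong to the exocrine pancreas, gave a strong signal in both groups. Their summed level was 530000 to 1090000 in IUGR and 404000 to 826000 in control samples, with 9 of 9 mean ratios above 0 and a median of 0.37. Their array medians were 0.43, 0.06, 1.42 and -0.37, so that array 3 was highest and array 4 lay below 0. Red blood cell genes (4 of 4 above 0, median 0.60) and T and B cell genes (7 of 8 below 0, median -0.48) had medians away from 0 as well. So had endothelial (5 of 5 above 0, median 0.33), macrophage (4 of 5 above 0, median 0.39), duct (6 of 7 below 0, median -0.32) and Schwann and neural cell genes (4 of 5 below 0, median -0.24), while fibroblast and stellate cell genes had a median of 0.13 (4 of 6 above 0). The signs of Mafa, below 0 on array 1 and above 0 on the others, were shared by 16.4% of all genes tested. In the lists, 4 of 5 endothelial and 3 of 4 red blood cell genes had them. So did 0 of 5 beta cell, 0 of 6 alpha cell and 0 of 4 delta, PP and epsilon cell genes. The count was 0 of 5 for macrophage and 0 of 8 for T and B cell genes. The acinar, duct, fibroblast and Schwann lists each had 1 such gene. The part of cell content in the members' ratios was not tested.

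Target genes of these factors in beta cells had a median close to that of the members. The tested beta cell markers above (Ins1, Ins2, Iapp, Slc2a2 and Slc30a8) were all among these targets too, so the lists are not independent. Of 22 listed, 21 were tested, 17 had a mean ratio above 0, 0 were called, 5 were higher and 0 lower at an unadjusted p under 0.05, and the median was 0.28. Slc2a2, the glucose transporter of rodent beta cells, had 0.20, 0.45, 0.39 and 0.23 on the 4 arrays, with a mean of 0.32 ± 0.09 and an adjusted p of 0.339. It was above 0 on every array, as were 6 of the 21 targets, while another 6 shared the array 1 pattern of Mafa. Pcsk1, a proinsulin-processing protease, was the target with the smallest p among those below 0, at -0.25 ± 0.13 (adjusted p = 0.356).

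Partners and upstream regulators, such as the Foxa, Hnf and Tcf factors and the chromatin enzymes that work with Pdx1, had a median near 0. Of 30 listed, 26 were tested, with 17 above 0 and 9 below, 0 called, 4 higher and 2 lower at an unadjusted p under 0.05, and a median of 0.03. Onecut2, a cut-homeodomain factor of pancreatic development, was the lowest at -0.88 ± 0.21, with array ratios of -0.02, -1.21, -1.23 and -1.08 (adjusted p = 0.339). Array 1 was thus near 0 where the other arrays were far below it. Tcf7l2, the Wnt pathway factor linked to type 2 diabetes, had 0.06, 0.75, 0.80 and 0.66, with a mean of 0.57 ± 0.14 (adjusted p = 0.339).

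Transcription factors of other islet lineages had a median of 0.12 over 9 tested, with 6 above 0 and 3 below, 0 called, and 1 higher and 1 lower at an unadjusted p under 0.05. Hhex, the delta cell factor, was below 0 on every array at -0.14, -1.31, -1.20 and -0.32, with a mean of -0.74 ± 0.25 (adjusted p = 0.339).

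Progenitor and exocrine transcription factors, 15 of 15 tested, had 9 above 0 and 6 below, 0 called, 3 higher and 0 lower at an unadjusted p under 0.05, and a median of 0.04. Hes1, the Notch target that holds back endocrine differentiation, had 0.22, 0.32, 0.81 and 0.49 on the 4 arrays, with a mean of 0.46 ± 0.09 (adjusted p = 0.339). Sox4, which acts in endocrine precursors, had -0.35 ± 0.16 (adjusted p = 0.339). Relatives of the same DNA-binding families, which serve as a comparison from the same gene classes, had a median of 0.01, with 16 of 18 tested, 9 above 0 and 7 below, 0 called, and 1 higher and 1 lower at an unadjusted p under 0.05. The small Maf gene Mafg had 0.46 ± 0.16 and Rfx2 had -0.30 ± 0.10 (adjusted p = 0.339 for both).

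**Figure D4:**
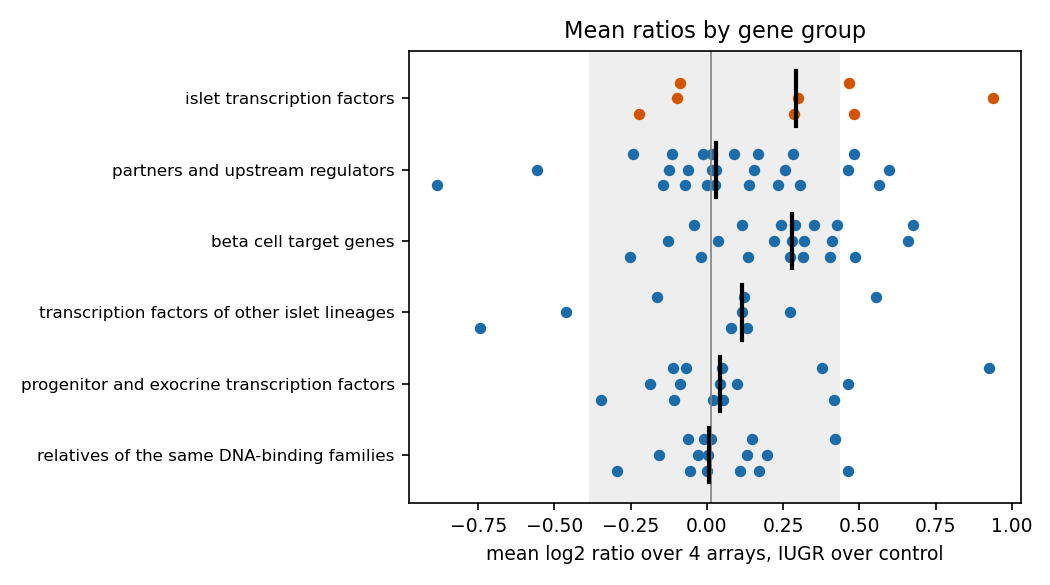
Mean log2 IUGR over control ratio (horizontal axis) of each tested gene, by group (vertical axis; points are staggered for legibility), with the group median as a black bar. The grey band holds the middle of all genes tested, from the fifth percentile at -0.38 to the 95th at 0.43, and its line is their median. The medians of the islet transcription factors (0.29) and of their beta cell targets (0.28) lie to the right of the other medians, and Mafa, Mnx1 and Pdx1 lie to the right of the band.

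The genes whose array ratios were most like those of Mafa were sought among 13615 tested genes with a symbol, by the root mean square difference over the 4 arrays. Nearest was Zbtb38, a zinc finger gene, at a difference of 0.07, with array ratios of -0.14, 1.61, 1.87 and 0.59. Sema6c, a semaphorin, came next at 0.11, then Mlxipl at 0.12 and Grin2d, an NMDA receptor subunit, at 0.13. Mlxipl encodes ChREBP, the glucose-responsive transcription factor, and its ratios were -0.46, 1.52, 1.72 and 0.59.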

How the data were processed

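Total RNA from 4 IUGR and 4 control islet samples was compared on 4 two-colour Agilent arrays. Per the file headers, the deposited scanner files hold signals and local backgrounds as intensity, extracted with Feature Extraction 10.10.1.1 (protocol GE2_1010_Sep10). They also hold a deposited log10 ratio, which was not used, and flags. The value table deposited by the authors holds a log2 ratio per spot. The submitters' processing notes name limma, and its settings are not given in the sources used here. Set against the scanner values in the files' row order, that table was Cy5 over Cy3 (r 0.951 to 0.983 across spots), with array medians of 0.008, -0.026, -0.014 and -0.029. Its normalization stays unknown.

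Here, limma 3.58.1 (in R 4.3.3, with statmod 1.5.0) applied normexp with an offset of 50 and loess, with 1377 control spots at weight 0. Feature outliers were left out, and spots with an outlying local background took their channel's median background. The brightest probe stood for a gene. A gene was tested if well above background in at least 2 of 4 channels of a group. The model held a dye term, with 2 residual and 2.75 prior degrees of freedom. A call needed an adjusted p under 0.05 (Benjamini-Hochberg over all 19992 tests). Sample levels are log2 values after loess and Aquantile scaling. Levels of single probes were not compared with each other. The summed level of a marker list adds the levels of its probes in intensity units, so that bright probes weigh most. The code was tested on simulated data. With no depth to give, the number of arrays limits the precision.

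Members and lists were chosen with earlier results of these data known. Named genes were all members, from each pathway list the gene with the smallest p in either direction and every gene called, and the 4 genes nearest to the member with the largest mean ratio. A gene that this rule names and a probe sequence are not reported here. The alternatives run are in the closing section. Replicate numbers are shared between groups but crossed between arrays. Deviations of same-numbered samples correlated at -0.05, -0.29, 0.08 and -0.17 across genes, so the numbers were not used as pairs.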

Additional observations from a re-analysis of the deposited data

Results flagged for a closer look

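Of 24 sets of 4 values checked (the ratios, the IUGR levels and the control levels of each of 8 members), 2 held a value far from the other 3. Chance gives about 1 such set in 20. The log2 level of Pdx1 in IUGR replicate 1 was 13.40, with the other IUGR samples between 12.60 and 12.69. The log2 ratio of Mnx1 on array 1 was -0.12, with the other arrays between 0.65 and 0.72. Leaving that array out gave a Mnx1 estimate of 0.68 (adjusted p = 0.0713), against 0.48 with it.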

How the results depend on the processing

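Each member's ratio was recomputed under 19 alternatives, and 0 members were called in any of them. The smallest adjusted p of a member was 0.0713, without array 1. Mafa stayed between 0.49 and 1.38, Pdx1 between 0.13 and 0.80, Mnx1 between 0.27 and 0.97, Neurod1 between -0.58 and -0.17 and Rfx6 between -0.40 and -0.01. Nkx6-1 ran from -0.04 to 0.50, Pax6 from -0.05 to 0.47 and Isl1 from -0.44 to 0.01. Under median centring the members' median was -0.0438, Nkx6-1 was -0.0403, Pax6 was -0.0473, and 15 genes were called, all lower. With arrays left out in turn, Isl1 ranged from -0.1843 to 0.0059 and the members' median from 0.10 to 0.49. The 2733 genes at an unadjusted p under 0.05 became 1791 with Agilent's processed signals, 1474 with outlying backgrounds left out, 1477 with them kept as measured, 1178 with median centring, 1079 with the brightness covariate and 5601 with separate channels and no replicate block. Without each array in turn they ranged from 465 (without array 3) to 6217 (without array 1), with 933 without array 2. The causes were not tested.

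The paired analysis by replicate number, as a replicate block on the 8 sample levels with no array term, called 0 members, with a members' median of 0.29 and 2240 genes at an unadjusted p under 0.05. Depth does not apply to arrays. The dim signals of Mnx1, and those of Mafa in the control channels of arrays 2 to 4, limit these genes, and 4 arrays limit all.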
